A study of Mus with 12 samples.

Results

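The imprinted long noncoding RNAs H19, Meg3, Rian, Mirg, Airn, Kcnq1ot1, Peg13 and Nespas were followed in the mouse uterus during pregnancy. They are 8 genes of 6 imprinted clusters, chosen by name, and each was found in both gene tables of the study, which hold 87235 and 40787 assembled rows. A row was taken when it carried the name of the gene and at least 1 Ensembl transcript. Nespas was listed under its other name, Gnasas1, in the first table and was matched there through the Ensembl transcripts that it shares with the Nespas row of the second table. Assembled rows that carry a name of the 8 but no Ensembl transcript, 1 in the first table and 4 in the second, were left out.

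In an imprinted gene, the copy inherited from the mother and the copy inherited from the father carry different DNA methylation marks, and only 1 of them is transcribed. Imprinted genes lie in clusters, and most clusters hold at least 1 long noncoding RNA that is expressed from the opposite parental copy to the protein-coding genes beside it. Airn and Kcnq1ot1 silence their neighbours on the paternal copy, and H19 and Meg3 are transcribed from maternal copies on which Igf2 and Dlk1 are silent. Many of these clusters govern growth and nutrient transfer in the placenta.

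The libraries came from the whole uterus of ICR mice, an outbred strain, mated at 60 days of age. There were 12 females in 4 groups of 3, collected at E0.5 and E4.5, which span the time before and just after the embryo attaches, and at E15.5 and E18.5, which span late gestation up to labor. Each library was made from 1 mouse, no animal was treated or genetically altered, and all of them were pregnant. The contrasts were E0.5 minus E4.5 and E18.5 minus E15.5. The first pair of days was deposited with counts, between 58020989 and 70906881 per library, and the second pair with FPKM only (fragments per kilobase of transcript, scaled to library size), so that its counts per library were not analysed here. The 2 tables were assembled and normalised separately, and no level is tested across them.

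The rows lie on the build GRCm38, and all 8 overlap the RefSeq gene of the same name. H19 is on chromosome 7 from 142575529 to 142578143, on the minus strand, and its row also holds the microRNA gene Mir675 that lies within it. On the same chromosome, Kcnq1ot1 runs from 143203458 to 143296549 on the minus strand, antisense to the potassium channel gene Kcnq1. Meg3 (109541001 to 109572675), Rian (109603808 to 109661716) and Mirg (109729764 to 109749460) follow each other on the plus strand of chromosome 12. In the first table the Meg3 row carries 5 names, the Rian row 16 and the Mirg row 10, and in the second 4, 10 and 10, the host included, among them small nucleolar RNAs or microRNAs made from these transcripts. Airn is on chromosome 17, plus strand, between 12740425 and 12832832, in a row that also names Gm23833, and overlaps Igf2r, the receptor that clears Igf2, on the other strand. Peg13 is on chromosome 15, minus strand, between 72805600 and 72810324, within an intron of Trappc9 and on the same strand as Trappc9. Nespas is on chromosome 2, minus strand, between 174281237 and 174295436, antisense to Gnas, which encodes a G protein subunit. No source states that reads were assigned by strand, so reads of Airn, Kcnq1ot1, Peg13 and Nespas cannot be told apart from those of the genes they overlap.

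Several libraries stood apart from the others of their group. In E4.5 replicate 3, the 13 markers of the ovary summed to 1443 FPKM, all 13 of them at 1 FPKM or more, against 5.64 to 8.38 FPKM in the other 5 libraries of its table, and the 6 markers of the oviduct to 98.8 FPKM against 5.58 to 23.0 FPKM. The same library had the lowest sum of smooth muscle markers (206 against 798 to 1214 FPKM). In E0.5 replicate 3, Xist, the RNA that coats the inactive X chromosome of female cells, had 0.0801 FPKM against 68.7 to 128 FPKM in the other 5 libraries. The 4 Y-linked genes that were examined summed to at most 0.0101 FPKM in those 6 libraries. In the second table they summed to 0.0316, 0.325 and 0.00305 FPKM at E15.5 and to 0.332 to 0.405 FPKM at E18.5. At the labor stage, the markers of yolk sac and fetal tissue summed to 3.37, 172 and 797 FPKM at E15.5 and to 188, 544 and 97.3 FPKM at E18.5. The trophoblast markers summed to 94.1, 11.6 and 8.89 FPKM at E15.5 and to 147, 182.3 and 134 FPKM at E18.5. Smooth muscle markers, which define the uterine wall, were present at 1 FPKM or more in all 12 libraries.

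The 8 lncRNAs differed widely in level within each day. At E0.5, Airn (mean 6.50 FPKM) and Peg13 (6.43 FPKM) were highest and Mirg (0.117 FPKM) was lowest. The ranges of neighbours in that order overlapped down to H19, while H19, Rian and Mirg did not overlap each other. At E18.5, H19 was first with a mean of 44.3 FPKM and did not overlap Airn, the next with 4.84 FPKM. Airn and Kcnq1ot1 overlapped at E18.5, as did Nespas and Mirg, and the other neighbours in the order did not. In whole tissue, fewer cells of a type and less RNA per cell cannot be told apart.

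**Figure D1:**
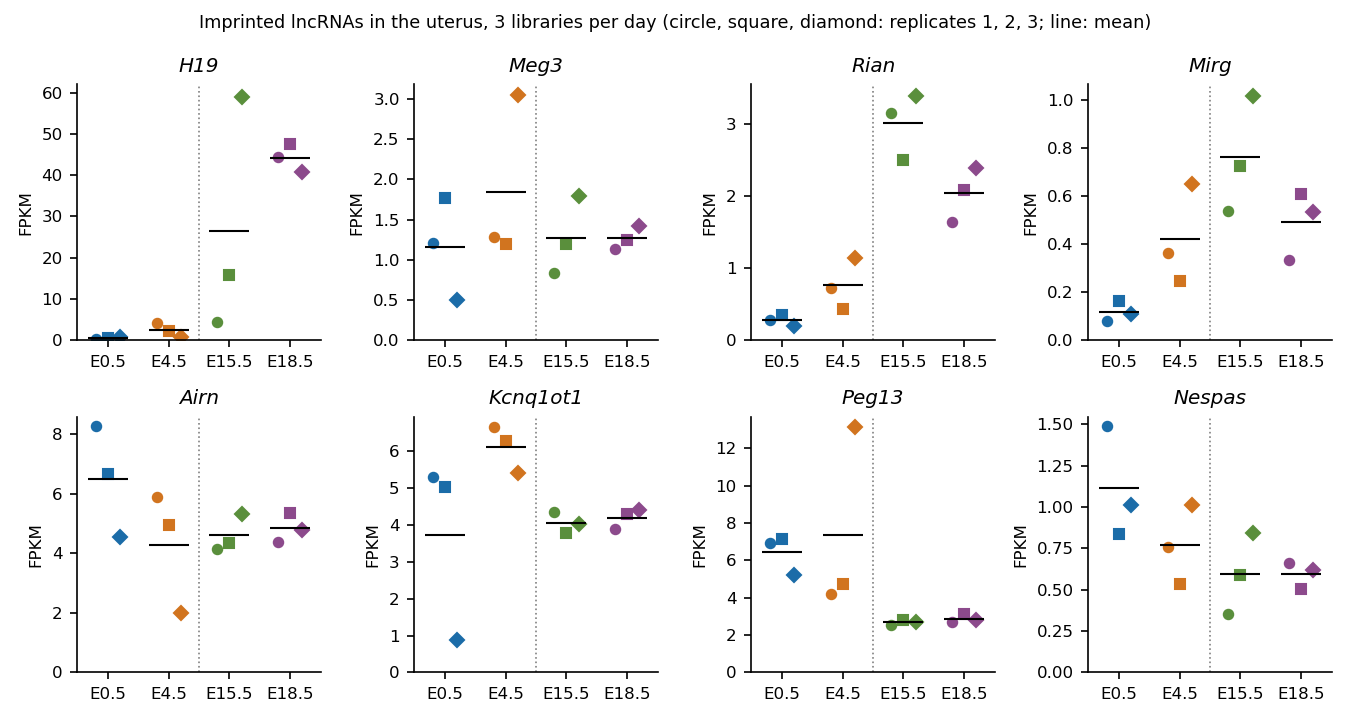
FPKM (vertical axis, from 0, own scale in each panel) of the 8 lncRNAs in the 12 libraries by day, with circles, squares and diamonds for replicates 1, 2 and 3 and a line at the mean of 3. The dotted line parts the 2 tables, which were normalised separately, and H19 spans 4.49 to 59.1 FPKM within E15.5 while Kcnq1ot1 stays between 3.77 and 4.40 FPKM in the 6 labor-stage libraries.

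Around implantation, H19, Rian and Mirg were lower at E0.5 than at E4.5, and the other 5 lncRNAs did not pass the criterion of the study (unadjusted p under 0.05 and a log2 fold change of 1 or more in size). The count of 3 of 8 stands beside 12.2% of all 59732 tested rows called in either direction and 5.82% called lower at E0.5. None of the 8 passed an adjusted p of 0.05 in the edgeR quasi-likelihood F-test (Benjamini-Hochberg over all rows), which 1.22% of all rows did. By unadjusted p alone 3 of the 8 were under 0.05 (17.0% of all rows), and DESeq2 gave an adjusted p under 0.05 to H19 (0.0326), Rian (0.0119) and Mirg (0.0150), where it gave one to 9.74% of all rows. The groups did not overlap in 4 of the 8 (25.2% of all rows). The median log2 fold change of the 8 was -0.67, and that of all tested rows was -0.0072. Some marker sums also differed without overlap between these days. The 5 endothelial markers summed to 18.9 to 21.9 FPKM at E0.5 and 27.5 to 50.7 FPKM at E4.5, and the 10 yolk sac and fetal markers to 0.0753 to 0.164 FPKM and 1.55 to 11.5 FPKM. Only 1 of these 10 was at 1 FPKM or more in each E4.5 library. Afp, Hba-x, Hbb-bh1, Hbb-y and Rhox5 were at 0 in every E4.5 library, and Ttr had 1.31, 3.63 and 0.0370 FPKM. The 7 epithelial markers went the other way, from 224 to 267 FPKM at E0.5 against 77.5 to 164 FPKM at E4.5. Their part in the results was not tested.

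H19, which gives rise to the growth-restricting microRNA gene Mir675, had 0.383, 0.645 and 0.863 FPKM at E0.5, against 4.16, 2.11 and 0.877 FPKM at E4.5 in replicates 1, 2 and 3. Every E0.5 library was below every E4.5 library, but the highest E0.5 value and that of E4.5 replicate 3 differed by little. This was a log2 fold change of -1.93 (SE 0.63, adjusted p = 0.195, edgeR), or 3.81-fold lower at E0.5. The 20 markers of trophoblast, in which H19 is abundant, summed to 0.652 to 1.61 FPKM in these 6 libraries, 17 of them at 0 in all E0.5 libraries and 13 in all E4.5 libraries. Without E4.5 replicate 3, the library with ovary markers, the log2 fold change was -2.33 (adjusted p = 0.0313). Its unadjusted p was no longer under 0.05 without E4.5 replicate 1 (-1.19, adjusted p = 0.393), without E0.5 replicate 1 (-1.65, adjusted p = 0.418) or without E0.5 replicate 2 (-1.95, adjusted p = 0.410). The same held with the replicate number as a block (-1.70, adjusted p = 0.429).

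Igf2, the growth factor gene that shares its enhancers with H19, has a row of its own in the first table beside a row of Gm49394, which overlaps it on the same strand, and how reads were assigned to the 2 rows is not stated. The Igf2 row had 305, 23 and 5 counts at E0.5 and 525, 14 and 32 at E4.5, while the Gm49394 row had 0, 156 and 279 and then 0, 243 and 314. Where 1 row was high in a library, the other was low or at 0. The Igf2 row was at a log2 fold change of -0.85 (SE 1.69, adjusted p = 0.833, edgeR) and turned to 2.22 without E4.5 replicate 1.

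The 3 lncRNAs of the Dlk1-Dio3 cluster had log2 fold changes of the same sign, of which those of Rian and Mirg passed the criterion. Rian, the host of many small nucleolar RNAs, had 0.280, 0.350 and 0.190 FPKM at E0.5, against 0.727, 0.438 and 1.13 FPKM at E4.5. The highest E0.5 library was below the lowest E4.5 library, and E4.5 replicate 3 was highest. Rian was at a log2 fold change of -1.45 (SE 0.39, adjusted p = 0.133, edgeR), 2.73-fold lower at E0.5.

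Mirg, the host of a large group of microRNAs, had 0.0778, 0.164 and 0.108 FPKM at E0.5, against 0.364, 0.248 and 0.649 FPKM at E4.5. Its groups did not overlap either, at low counts of 55 to 99 per library at E0.5 and 158 to 406 at E4.5. Mirg was at a log2 fold change of -1.75 (SE 0.47, adjusted p = 0.136, edgeR). Both remained past the criterion without E4.5 replicate 3, Rian at -1.10 (adjusted p = 0.111) and Mirg at -1.35 (adjusted p = 0.140). With limma on log2(FPKM + 0.1) neither had an unadjusted p under 0.05, and they were at -1.16 (adjusted p = 0.345) and -1.21 (adjusted p = 0.368).

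Meg3, the first transcript of the cluster and a lncRNA with growth-suppressing activity, had 1.21, 1.77 and 0.495 FPKM at E0.5, against 1.29, 1.19 and 3.05 FPKM at E4.5. Its groups overlapped, E0.5 replicate 3 was lowest and E4.5 replicate 3 was highest. Meg3 was at a log2 fold change of -0.64 (SE 0.53, adjusted p = 0.579, edgeR) and -0.12 without E4.5 replicate 3.

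From the start of Meg3 to the end of Mirg lie 208.46 kb, and 38 rows of the plus strand were tested in this interval. Of these, 34 had a negative log2 fold change and 5 were called (12.2% of all rows were), a share near the background. The 5 were Rian, Mirg, Gm37899, B830012L14Rik and Mir323, the last of which held 0 counts at E0.5 and 14 at E4.5. Mir323 and other small RNA rows with 0 counts at E0.5 passed the FPKM minimum through E4.5 alone. Their negative sign was fixed beforehand and they count among the 34, so the 34 is not a result of its own. Over all tested rows the median log2 fold change was -0.0072. All 5 long rows were on the negative side, and they included the noncoding genes Gm37899 at -1.66 (SE 0.56, adjusted p = 0.208) and B830012L14Rik at -2.01 (SE 0.59, adjusted p = 0.157), which lie between Rian and Mirg. Rows of neighbouring transcripts may share reads and are not independent of each other. The other 33 of the 38 are rows of single small RNA genes at low counts. They are among 56 such rows in the interval, 45 of microRNAs and 11 of small nucleolar RNAs, which held 29, 45 and 28 counts in all at E0.5 and 93, 86 and 176 at E4.5. Each E0.5 library was below each E4.5 library in this sum. Libraries of long RNA do not measure mature microRNAs.

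**Figure D2:**
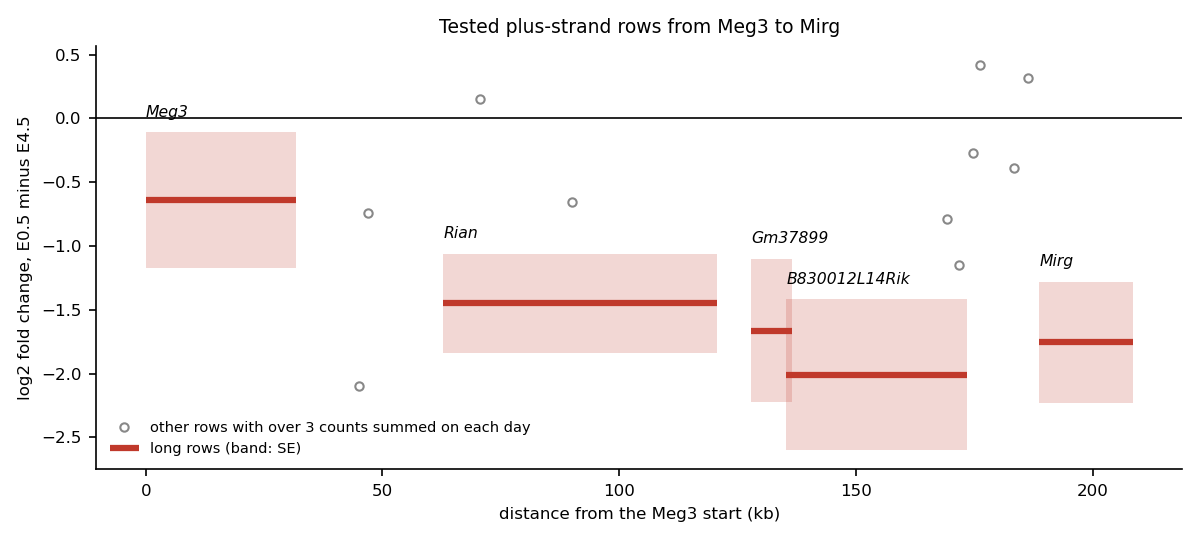
Log2 fold change of E0.5 minus E4.5 (vertical axis) against the distance from the start of Meg3 in kb (horizontal axis) for the 5 long rows, drawn over their own length with a band of 1 SE, and for 10 other tested rows with over 3 counts summed on each day. All 5 long rows lie below 0, from -0.64 for Meg3 to -2.01 for B830012L14Rik.

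The protein-coding genes of the same cluster are expressed from the paternal copy. Dio3, a deiodinase that inactivates thyroid hormone, had 0.0432, 0.385 and 0.205 FPKM at E0.5, against 7.76, 6.24 and 0.619 FPKM at E4.5. E4.5 replicate 3 was the lowest of its day and still above every E0.5 library. The 9 decidua markers summed to 198 to 261 FPKM at E0.5 and to 244, 214 and 54.0 FPKM at E4.5, most of it from Des, which is also a smooth muscle marker, and Dcn. The other 7 summed to 17.5 to 29.2 FPKM at E0.5 and to 61.5, 60.6 and 18.9 FPKM at E4.5, and E4.5 replicate 3 lay within the range of the E0.5 libraries in that sum. The part of the decidua in the result was not tested. Dio3 was at a log2 fold change of -4.51 (SE 1.14, adjusted p = 0.119, edgeR), and at -5.25 without E0.5 replicate 2. Rtl1, a retrotransposon-derived gene that is needed for the vessels of the placenta, was lower at E0.5 too, at -1.87 (SE 0.45, adjusted p = 0.108), and lost the call with limma (-1.38). Dlk1, an inhibitor of adipocyte differentiation, was nearly silent, with 30, 0 and 0 counts at E0.5 and 217, 47 and 53 at E4.5 (adjusted p = 0.343), and it passed the criterion without E0.5 replicate 1, when both remaining E0.5 libraries were at 0, and with DESeq2.

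Airn, the long antisense transcript that is needed to silence Igf2r on the paternal copy, had 8.28, 6.66 and 4.56 FPKM at E0.5, against 5.88, 4.96 and 2.005 FPKM at E4.5. The groups overlapped, and E4.5 replicate 3 was lowest. Airn was at a log2 fold change of 0.59 (SE 0.44, adjusted p = 0.525, edgeR), and without E4.5 replicate 3 it was 0.24. The 6 tested rows that overlap Airn had log2 fold changes of 0.66 to 1.16, of which 1 was called (12.2% of all rows were), and all 6 were lowest in E4.5 replicate 3. That library also had the lowest smooth muscle markers, and their part in these values was not tested.

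Igf2r, which Airn crosses, had 16.2, 14.2 and 13.6 FPKM at E0.5, against 10.4, 10.3 and 7.09 FPKM at E4.5. It did not overlap between the groups, and its log2 fold change of 0.66 (SE 0.22, adjusted p = 0.201, edgeR) was below the fold criterion. Slc22a3, an organic cation transporter of the same cluster that Airn silences in the placenta, had 4.77, 5.11 and 5.48 FPKM at E0.5, against 1.16, 1.12 and 1.43 FPKM at E4.5. Its groups were far apart, and E4.5 replicate 3 lay close to the others of its day. Slc22a3 was higher at E0.5 by 2.06 on the log2 scale (SE 0.19, adjusted p = 0.0136, edgeR). With 1 library left out, its adjusted p was past 0.05 in 4 of 6 cases, up to 0.106 without E0.5 replicate 2, and stayed under it without E4.5 replicate 2 (0.0492) or 3 (0.00263). Airn itself, at 0.59, did not pass the test.

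Kcnq1ot1, the antisense transcript that silences much of its cluster on the paternal copy, had 5.29, 5.04 and 0.870 FPKM at E0.5, against 6.65, 6.27 and 5.41 FPKM at E4.5. All E0.5 libraries were below all E4.5 libraries, and E0.5 replicate 3 was far below the rest. In counts it had 7047 where the other 5 libraries of the table had between 34711 and 52615. Kcnq1ot1 was at a log2 fold change of -0.71 (SE 0.60, adjusted p = 0.588, edgeR), and without E0.5 replicate 3 it was -0.24 (adjusted p = 0.629). That library was also the one nearly without Xist, and the part of this in the result was not tested. Kcnq1, on the other strand, had 5.07 FPKM in the same library, close to 6.03 and 5.33 FPKM in the other E0.5 libraries.

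In the Kcnq1 cluster, 2 of 10 tested protein-coding genes were called (12.2% of all rows were), both higher at E0.5. Cdkn1c, an inhibitor of the cell cycle that Kcnq1ot1 silences on the paternal copy, had 4.45, 3.12 and 5.13 FPKM at E0.5, against 1.34, 1.84 and 0.983 FPKM at E4.5, with no overlap. Cdkn1c was at a log2 fold change of 1.61 (SE 0.33, adjusted p = 0.0743, edgeR). Slc22a18, a transporter gene, was at 1.52 (SE 0.37, adjusted p = 0.110). Kcnq1 itself was at 0.61 (SE 0.23, adjusted p = 0.254), below the fold criterion.

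Peg13, a paternally expressed transcript within Trappc9, had 6.95, 7.13 and 5.22 FPKM at E0.5, against 4.21, 4.76 and 13.2 FPKM at E4.5. The value of E4.5 replicate 3 was the highest of the 6 libraries of this table, and the other E4.5 libraries were below every E0.5 library. Peg13 was at a log2 fold change of -0.17 (SE 0.43, adjusted p = 0.874, edgeR), and without E4.5 replicate 3 it turned to 0.51 (adjusted p = 0.190). Trappc9, which encloses Peg13, had 4.53, 4.60 and 10.1 FPKM at E4.5 and so was highest in the same library. The part of ovary and oviduct tissue in these values was not tested.

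Nespas, a paternally expressed antisense transcript of the Gnas cluster, had 1.49, 0.840 and 1.01 FPKM at E0.5, against 0.758, 0.533 and 1.01 FPKM at E4.5. The groups overlapped and the log2 fold change of Nespas was 0.54 (SE 0.35, adjusted p = 0.462, edgeR). Gnas, on the other strand, was at -0.16 (SE 0.19, adjusted p = 0.701), with 13.2 to 15.6 FPKM at E0.5 and 13.5 to 19.9 FPKM at E4.5.

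Of the 24 protein-coding genes listed for the 6 clusters, 21 were tested at this stage, and the 5 named above were called, 3 of them higher at E0.5 and 2 lower (23.8% of the list against 12.2% of all rows). Slc22a3 was the 1 gene of them past the adjusted p. Of 28 other imprinted protein-coding genes, 25 were tested in 24 rows, since H13 and Mcts2 share 1 row, and 5 were called. Peg10, a retrotransposon-derived gene that the placenta needs, had 19.95, 30.2 and 14.1 FPKM at E0.5, against 0.863, 1.29 and 3.24 FPKM at E4.5. It was higher at E0.5 by 3.61 on the log2 scale (SE 0.56, adjusted p = 0.0421, edgeR). This adjusted p held with 1 library left out only without E4.5 replicate 3 (4.31, adjusted p = 0.00284), and was 0.116 to 0.168 without any of the others. Dcn, a proteoglycan of the stroma, was also higher at E0.5 (1.55), and Mest (-2.55), Sfmbt2 (-1.26) and Snrpn (-1.05) were lower. Mest was at -1.79 without E4.5 replicate 1. Sfmbt2 lost the call with limma (-1.08), with a replicate block (-1.33) and without either of E0.5 replicates 1 (-1.04) and 2 (-1.08) or E4.5 replicates 1 (-1.14) and 2 (-1.09). Snrpn fell just short of the fold criterion with limma (-0.97) and upper-quartile factors (-0.96), and without E0.5 replicate 3 (-0.96) or E4.5 replicate 3 (-0.96). The Snrpn row also holds Snhg14, another imprinted lncRNA, and their reads were not separated.

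**Figure D3:**
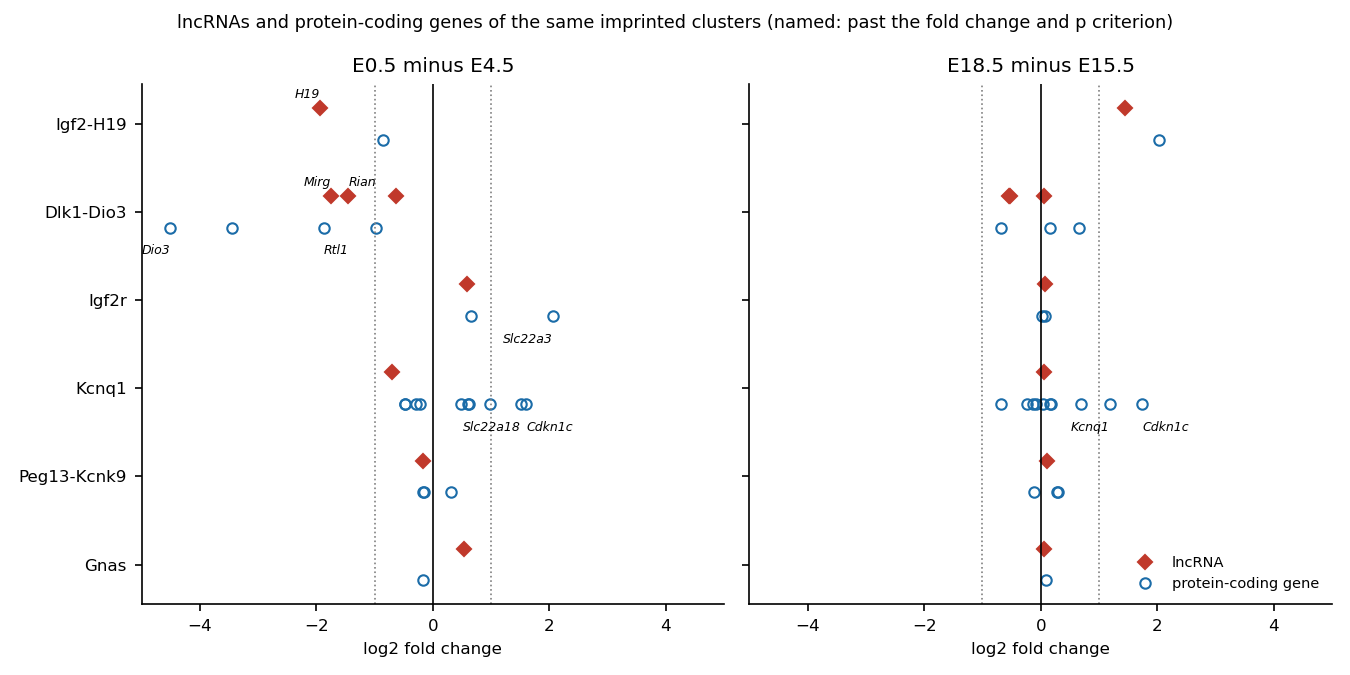
Log2 fold change (horizontal axis) of the 8 lncRNAs (filled diamonds) and of the tested protein-coding genes (open circles) in each of the 6 imprinted clusters, for E0.5 minus E4.5 at the left and E18.5 minus E15.5 at the right. Genes past the fold change and p criterion are named, from Dio3 at -4.51 to Slc22a3 at 2.06 in the first comparison, and Cdkn1c at 1.74 and Kcnq1 at 1.19 in the second.

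Between E15.5 and E18.5, none of the 8 lncRNAs passed the criterion, against 6.05% of all 30928 tested rows, and none passed an adjusted p of 0.05 in limma, which 0.0259% of all rows did. The smallest unadjusted p, and the 1 value under 0.05 (12.2% of all rows), was that of Rian. The median log2 fold change of the 8 was 0.053, and that of all tested rows was 0.020. H19 had the largest log2 fold change of the 8.

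H19 had 4.49, 15.9 and 59.1 FPKM at E15.5 and 44.3, 47.7 and 40.8 FPKM at E18.5. The E18.5 libraries lay close together, and the E15.5 libraries ranged from far below them to above them. The log2 fold change of E18.5 minus E15.5 for H19 was 1.44 (SE 0.82, adjusted p = 0.523, limma). Without E15.5 replicate 3 it was 2.37 (adjusted p = 0.152), past the criterion, and without E15.5 replicate 1 it was 0.52. The 3 E15.5 libraries had the same order in H19 as in the yolk sac and fetal markers, which summed to 3.37, 172 and 797 FPKM, with 0, 8 and 8 of the 10 markers at 1 FPKM or more. They had the reverse order in the trophoblast markers (94.1, 11.6 and 8.89 FPKM), and E15.5 replicate 1 had the highest decidua markers of the stage, 2113 FPKM against 688 to 903 FPKM, of which Prl8a2 gave 1342 FPKM. The part of these tissues in the result was not tested.

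Igf2 had 0.613, 2.75 and 7.77 FPKM at E15.5 and 10.6, 19.1 and 5.24 FPKM at E18.5, with the same order of the E15.5 libraries as H19. Igf2 was at a log2 fold change of 2.03 (SE 0.88, adjusted p = 0.418, limma). It was 1.12 without E15.5 replicate 1 and 1.58 without E18.5 replicate 2, and it passed the criterion without E15.5 replicate 3 (2.85) or E18.5 replicate 3 (2.51), with a pseudocount of 1 (1.59) and with a minimum of 1 FPKM (2.03). Peg10 followed that order as well, with 2.19, 6.51 and 24.2 FPKM at E15.5 and 14.6, 35.9 and 9.80 FPKM at E18.5. Among the E18.5 libraries, replicate 2 was highest in H19, Igf2, Peg10 and both marker sums.

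**Figure D4:**
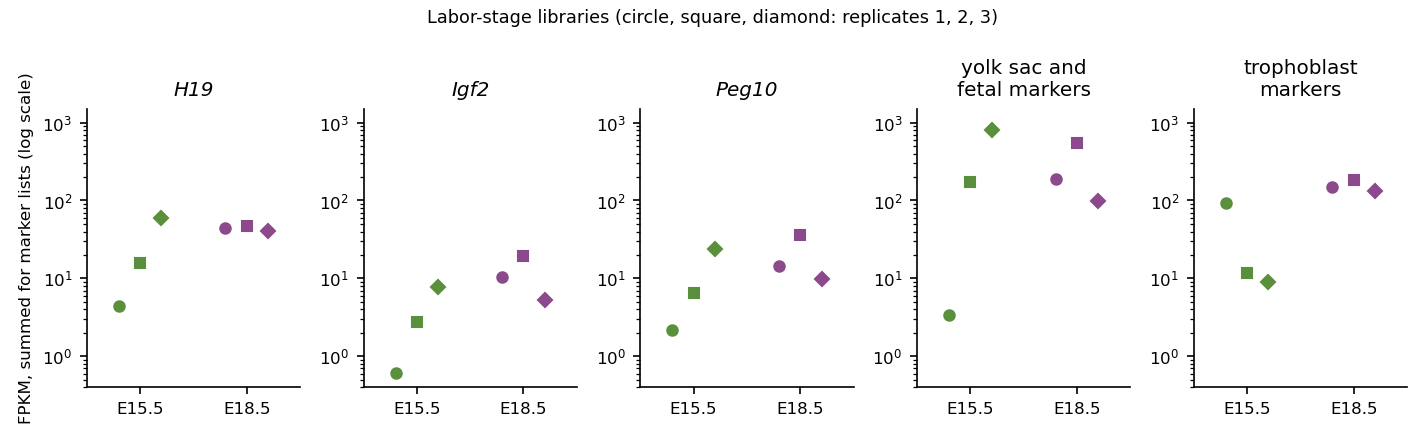
FPKM on a log scale (vertical axis) of H19, Igf2 and Peg10, and FPKM summed over 10 yolk sac and fetal markers and over the 20 listed trophoblast markers, in the 3 libraries of E15.5 and the 3 of E18.5 (circles, squares and diamonds for replicates 1, 2 and 3). H19, Igf2, Peg10 and the yolk sac and fetal sum are lowest in replicate 1 and highest in replicate 3 of E15.5, where H19 is at 4.49 and 59.1 FPKM.

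Rian had 3.14, 2.49 and 3.38 FPKM at E15.5 and 1.64, 2.08 and 2.39 FPKM at E18.5. The groups did not overlap, which was so for 1 of the 8 lncRNAs (19.9% of all rows). Rian was at a log2 fold change of -0.55 (SE 0.20, adjusted p = 0.352, limma), a smaller change than the criterion asks. The endothelial markers were also lower at E18.5 without overlap (69.4 to 97.5 against 139 to 170 FPKM) and the epithelial markers higher (608 to 833 against 197 to 419 FPKM), as were the trophoblast markers (134 to 182.3 against 8.89 to 94.1 FPKM). The decidua markers without Des and Dcn were lower at E18.5 without overlap (62.5 to 81.0 against 91.8 to 1370 FPKM). Their part in the result was not tested. Mirg had 0.539, 0.726 and 1.02 FPKM at E15.5 and 0.335, 0.608 and 0.532 FPKM at E18.5, with overlap, and was at -0.53 (SE 0.32, adjusted p = 0.550, limma). Meg3 had 0.832, 1.20 and 1.79 FPKM at E15.5 and 1.13, 1.25 and 1.424 FPKM at E18.5, all of which lie within the E15.5 range. Its log2 fold change was 0.049 (SE 0.29, adjusted p = 0.962, limma).

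Of the other 4 lncRNAs, 3 had narrow ranges at the labor stage. Airn stayed between 4.16 and 5.36 FPKM, Kcnq1ot1 between 3.77 and 4.40 FPKM and Peg13 between 2.52 and 3.12 FPKM over the 6 libraries. Nespas spread more widely, with 0.352, 0.590 and 0.840 FPKM at E15.5 and 0.660, 0.504 and 0.617 FPKM at E18.5. The log2 fold changes of these 4 were between 0.050 and 0.10, with standard errors of 0.13 to 0.33. The days overlapped for all 4.

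In the Kcnq1 cluster, Cdkn1c and Kcnq1 passed the fold and unadjusted p criterion, and its other tested genes did not. Cdkn1c had 3.30, 2.83 and 6.58 FPKM at E15.5 and 16.2, 15.7 and 9.56 FPKM at E18.5, a log2 fold change of 1.74 (SE 0.35, adjusted p = 0.153, limma). Kcnq1 had 1.002, 1.54 and 2.51 FPKM at E15.5 and 4.43, 3.55 and 3.28 FPKM at E18.5, a log2 fold change of 1.19 (SE 0.32, adjusted p = 0.224). The trophoblast and epithelial sums given above were higher at E18.5 without overlap as well. The endothelial sum and the decidua sum without Des and Dcn were lower without overlap. The part of these tissues in these 2 calls was not tested. Kcnq1 lost the call without E15.5 replicate 1 (0.89) and with a pseudocount of 1 (0.86). They were the 2 genes called of 20 tested cluster genes (6.05% of all rows were called), and none of the 20 passed the adjusted p (0.0259% of all rows did), nor did any of the 25 other imprinted protein-coding genes, of which 0 were called and 1 had an unadjusted p under 0.05. Dio3, which had been lower at E0.5 than at E4.5, had 9.45, 6.73 and 10.1 FPKM at E15.5 and 13.3, 13.3 and 14.2 FPKM at E18.5, without overlap and below the fold criterion (0.65, SE 0.17, adjusted p = 0.214, limma). Igf2r was at 0.075 and Gnas at 0.099, both with overlapping groups.

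**Figure D5:**
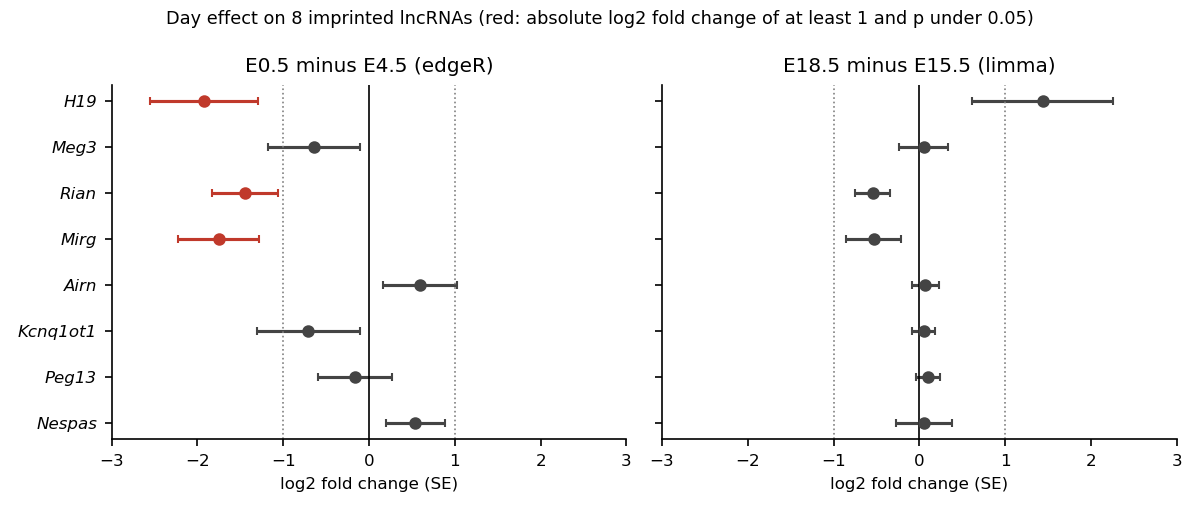
Log2 fold change with its standard error (horizontal axis) of each of the 8 lncRNAs, for E0.5 minus E4.5 (edgeR on counts) at the left and E18.5 minus E15.5 (limma on log2(FPKM + 0.1)) at the right. Red marks H19, Rian and Mirg, at -1.93, -1.45 and -1.75 in the first comparison, and no lncRNA is marked in the second.

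The day effects of the 2 stages were compared directly in limma over all 12 libraries. The difference, E0.5 minus E4.5 less E18.5 minus E15.5, passed an adjusted p of 0.05 in 0 of the 8 lncRNAs (2.7% of the 21393 tested row pairs). It was largest for H19, at -3.02 (SE 1.08, adjusted p = 0.166), and H19 alone had an unadjusted p under 0.05 (18.2% of all pairs). Without E15.5 replicate 3 the difference for H19 was -3.94 (adjusted p = 0.0485), and without E15.5 replicate 1 it was -2.10 (adjusted p = 0.231). With any other library left out its adjusted p was 0.0833 to 0.283. For Rian and Mirg, which had negative log2 fold changes in both comparisons, the difference was -0.61 (SE 0.43, adjusted p = 0.501) and -0.68 (SE 0.51, adjusted p = 0.529).

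Within the Dlk1-Dio3 cluster, the levels of Rian and Mirg followed each other over the 12 libraries. After the mean of each table was taken off, the Pearson correlation of their log2(FPKM + 0.1) values was 0.92, and Meg3 had 0.70 with Rian and 0.68 with Mirg. Without E4.5 replicate 3 these were 0.85, 0.45 and 0.43. Over the 12 libraries Meg3 was about as high with lncRNAs of other clusters, at 0.68 with Peg13 and 0.67 with Kcnq1ot1. These are descriptions over libraries that share their preparation, and group means enter them. Among 12580 rows whose mean reached 1 FPKM in both tables, the genes most like each lncRNA were Xndc1 for H19 (0.97), Asb6 for Meg3 (0.87), Zbtb46 for Rian (0.93), Bmp3 for Mirg (0.94), Pdlim3 for Airn (0.94), Kif1b for Peg13 (0.97) and Hp for Nespas (0.93). The row most like Kcnq1ot1 was Xist (0.99), a likeness that rests on E0.5 replicate 3, where Kcnq1ot1 had 0.870 FPKM and Xist 0.0801 FPKM. Without that library the correlation of Kcnq1ot1 with Xist was 0.52 over 11 libraries, and that of Meg3 with Asb6 was 0.72. Without E4.5 replicate 3 that of Airn with Pdlim3 was 0.73. Pdlim3, a muscle gene, had 1.91 FPKM in E4.5 replicate 3 and 11.5 to 23.0 FPKM in the other 5 libraries of that table, in which Airn was also lowest in that library.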

How the data were processed

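The authors sequenced RNA from 12 whole uteri and assembled transcripts separately for the 2 stages. The study's methods name Bowtie2, Tophat2, StringTie and Ballgown, and the submitters' processing notes list HISAT2 2.0, StringTie 1.3.0 and Bowtie 0.12.2 with mm8 and mm10. The labels describe poly(A) selection and the methods rRNA removal, and strandedness is not given in the sources used here. The deposited FPKM values were made by the authors per stage, and 0.0001 in the first table stands for 0. The deposited counts of E0.5 and E4.5 are whole numbers from the authors, and how reads were assigned is not stated. Replicates are separate mice.

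Counts were tested with edgeR 4.0.16 (TMM, quasi-likelihood F-test), FPKM of E15.5 and E18.5 and the difference between stages with limma 3.58.1 (trend) on log2(FPKM + 0.1), which understates changes at low levels, in R 4.3.3. Rows needed a mean of 0.1 FPKM over 6 libraries. Adjusted p-values are Benjamini-Hochberg over all tested rows. Unnamed rows, 1.02% to 1.86% of a library's counts, were kept. Of 17068 protein-coding rows with a RefSeq name, 17064 overlap that gene in GRCm38. On simulated data with 200 rows changed at a log2 fold of 3, edgeR recovered 99%, limma 93% for E18.5 against E15.5 and 79% for the stage difference. False calls were 6, 13 and 3 in that order. The rows changed for edgeR were not of low count, the limma rows had less spread than measured, and no simulated library stood apart. These shares therefore do not give the recovery in the real libraries. Figures were drawn with matplotlib 3.10.9 in Python 3.11.15.

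The genes, lists and comparisons were chosen with earlier results of these data known, and the Y-linked genes and the rows of Xist, Gm49394, Gm37899 and B830012L14Rik were added after the values had been seen, as was the decidua sum without Des and Dcn. All 8 lncRNAs are named. Of the imprinted lists, the genes called at a stage and Igf2, Dlk1, Igf2r, Cdkn1c, Kcnq1 and Gnas are named, and for likeness the row of highest correlation. Trappc9 and, at the labor stage, Dio3 and Peg10 were added. Alternatives were DESeq2 1.42.0, limma for the first table, other scalings, filters and pseudocounts, the replicate number as a block, and leaving out each library. Leaving out rows without a gene name was added after seeing the data. Columns of every sample were used. Sequences were not used here.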

Additional observations from a re-analysis of the deposited data

Results flagged for a closer look

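Slc22a3, the organic cation transporter gene beside Airn, had a day effect that differed between the stages by 1.94 on the log2 scale (SE 0.39, adjusted p = 0.0263, limma over 12 libraries with Benjamini-Hochberg adjustment). It was 1.97 higher at E0.5 than at E4.5 on the log2(FPKM + 0.1) scale and 0.023 higher at E18.5 than at E15.5, where its level was 0.092 to 0.257 FPKM in the 6 libraries. For Airn the same difference was 0.61 (SE 0.49, adjusted p = 0.554).

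Dcn, a stromal gene from the list of other imprinted genes, in none of the 6 clusters, had a difference of 1.60 (SE 0.37, adjusted p = 0.0482, limma). This adjusted p is just under 0.05, and at E0.5 against E4.5 alone that of Dcn was 0.0675 (edgeR). It had 70.9, 78.8 and 116 FPKM at E0.5, against 28.3, 40.7 and 22.1 FPKM at E4.5, and 327 to 458 FPKM at the labor stage.

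An assembled row named Airn that holds no Ensembl transcript was left out of the comparisons. It had 196, 140 and 199 counts at E0.5 and 158, 136 and 105 counts at E4.5, 934 counts in all. Of the rows left out at the labor stage, that of Mirg had 0.787 to 1.69 FPKM, where the Mirg row that was tested had 0.335 to 1.02 FPKM. That of Rian had 0.583 to 1.78 FPKM, and those of Airn 1.23 to 3.73 and 2.40 to 2.99 FPKM.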

How the results depend on the processing

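Of 609 values of single genes under alternatives, 562 kept their direction and their side of the criterion, 23 lost the call, 10 gained it and 14 changed sign. Past the adjusted p at E0.5 against E4.5, DESeq2 gave 3 of the 8 lncRNAs, 5 cluster genes and 4 other imprinted genes (9.74% of all rows against 1.22% with edgeR), and a minimum of 1 FPKM gave 3 other imprinted genes. By fold change and p, limma called 1 lncRNA and 3 other imprinted genes (12.9% of all rows), and the 1 FPKM minimum called 1 lncRNA (12% of all rows), since it removes Rian and Mirg from the test. The cause of the other changes was not tested.

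With each library left out in turn, the lncRNAs called at E0.5 against E4.5 were 2 to 3 (10% to 14.1% of all rows) and those past the adjusted p 0 to 1. For cluster genes the counts were 5 to 6 and 0 to 4, and for other imprinted genes 4 to 7 and 0 to 5. Over all rows the adjusted p was passed by 0 rows without E0.5 replicate 2 and by 3629 without E4.5 replicate 3, against 730 with all libraries. At E18.5 against E15.5, 0 to 1 lncRNAs, 2 to 3 cluster genes and 0 to 2 other imprinted genes were called (4.97% to 7.74% of all rows), and 0 to 1 lncRNAs passed the adjusted p of the stage difference.

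Values that changed sign when a library was left out ranged from -0.44 to 0.51 for Peg13 and -3.64 to 2.22 for Igf2 at E0.5 against E4.5. At E18.5 against E15.5 they ranged from -0.20 to 0.31 for Meg3, -0.22 to 0.31 for Nespas, -0.0025 to 0.18 for Airn and -0.13 to 0.21 for Igf2r. The stage difference of Peg13 ranged from -0.41 to 0.40. Quantile normalisation gave -0.033 for Meg3 and -0.0096 for Kcnq1ot1 at E18.5 against E15.5 and 0.041 for the stage difference of Peg13.

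The replicate numbers showed no pairing of the mice in a check by correlation. Deviations of equal numbers correlated at -0.063 to 0.018, and those of unequal numbers at -0.071 to 0.091. Whether libraries share a batch was not tested. With a replicate block at E0.5 against E4.5, 0 cluster genes and 0 other imprinted genes passed the adjusted p, and 0 rows in all. At E18.5 against E15.5, 2 rows passed it with the block and 8 without. H19 was at -1.70 (adjusted p = 0.429) and lost the call, as did Sfmbt2, Dlk1 gained it (adjusted p = 0.234), and Peg13 turned to 0.021 under that block.

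With 3 mice a group, the smallest p of an exact permutation test is 0.1, so calls rest on the spread shared across rows. Low counts limit Mirg, Dlk1, Igf2 and the small RNA rows, and counts of the labor stage were not analysed here.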
